A study of Homo sapiens with 6 samples.

Results

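Galanin and its receptors comprise 4 genes here, GAL, GALR1, GALR2 and GALR3, of the 56638 gene symbols in the files. GAL, which encodes the peptide, was chosen by the size of its fall in these libraries, so its change is given as a description and is not tested. The receptors were chosen by name. Of the 4 genes, 3 had enough counts to enter a comparison across 23074 genes, and GALR1 had no count.

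The RNA came from human colorectal cancer cells in culture, in 3 libraries titled control siRNA and 3 titled GLCC1 siRNA. The control cells received a nonspecific siRNA, and the other cells received siRNA against lncRNA-AF339830, a long non-coding RNA that the study named GLCC1. By its labels each sample was of SW480 cells, whereas the methods of the paper name DLD-1, each a line grown from a colorectal adenocarcinoma, and which of them was sequenced was not tested. Libraries are called here by their titles, whereas the library names in the descriptions attach each group to the other siRNA, which would turn the direction of every difference below. In each title a number follows the word siRNA, and it is read here as a replicate number. The paper lists different siRNAs against GLCC1, and whether the numbers name such siRNAs was not tested.

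GLCC1 itself has no row in the files, so its knockdown could not be checked. The annotated gene that holds its locus, FARP1, lay between 109 and 113 CPM (counts divided by library size, with TMM factors, to a common total) in the control libraries and between 63.2 and 65.6 CPM in the GLCC1 siRNA libraries. Read pairs counted on genes numbered 15002165 to 19042516 in a control library and 11948790 to 18390975 in a GLCC1 siRNA library. GLCC1 siRNA replicate 2 was the smallest library and stood apart from the other two of its group, with a chi-square per degree of freedom of 16.3 and 17.1 against them, where all other pairs of one group gave 1.84 to 3.84. It also had the highest share of read pairs on no gene, 14.2%. That share was 12.7% and 12.5% in GLCC1 siRNA replicates 1 and 3, and 11.2% to 11.5% in the control libraries. Values without it are given beside the results that it bears on.

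Galanin is a peptide of neurons and endocrine cells, in the gut mainly of the nerves of the bowel wall, where it acts on motility and secretion. It is cut out of a longer precursor by convertases that cleave after pairs of basic residues, and is then amidated at its end in most species but not in humans. Its receptors are G protein-coupled. GALR1 and GALR3 act mainly through Gi proteins, which inhibit adenylyl cyclase and open inwardly rectifying potassium channels, and GALR2 acts in addition through Gq proteins and phospholipase C. Galanin and its receptors have been described in colorectal tumours, among other cancers.

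GAL (ENSG00000069482) lies on chromosome 11 at chr11:68451247-68458643 on the plus strand of GRCh37. No other gene overlaps it in the annotation used here for positions, and overlaps in the annotation used for the counting were not checked. The stretch of its coding sequence that encodes the peptide is shown because this is the message that was counted. It was read from the reference genome along transcript GAL-201, whose coding sequence encodes a precursor of 123 residues, and the peptide is the run of 30 residues at positions 33 to 62. The 102 bases are spliced from exon 3 (chr11:68453071-68453116) and exon 4 (chr11:68455482-68455537) of 6, and capitals mark the codons of the paired basic residues on each side of the peptide, where the precursor is cleaved.
GAL peptide: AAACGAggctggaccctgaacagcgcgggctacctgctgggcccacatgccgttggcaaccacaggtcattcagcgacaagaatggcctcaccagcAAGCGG

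GAL was abundant in the control libraries and low in the GLCC1 siRNA libraries. Raw counts of GAL were 1201, 1591 and 1419 in control replicates 1, 2 and 3, and 190, 126 and 249 in GLCC1 siRNA replicates 1, 2 and 3. Scaled to library size, these were 82.3, 87.7 and 85.5 CPM against 9.91, 10.0 and 13.9 CPM. All GLCC1 siRNA libraries were below all control libraries, and the library that stood apart elsewhere, GLCC1 siRNA replicate 2, did not stand apart here. Within the GLCC1 siRNA group, replicate 3 held more GAL than the other two, with 95% counting intervals of 12.3 to 15.8 CPM for replicate 3, 8.55 to 11.4 CPM for replicate 1 and 8.35 to 11.9 CPM for replicate 2. The intervals cover counting error only.

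The control libraries had a mean GAL level of 85.2 ± 2.68 CPM and the GLCC1 siRNA libraries one of 11.3 ± 2.29 CPM (SD, n = 3 each). On the log2 scale the difference fitted by edgeR was -2.91 (standard error [SE] 0.13, 95% interval -3.18 to -2.63), a level 7.51-fold lower. As a share of the control mean, GAL stood at 11.6%, 11.8% and 16.4% in GLCC1 siRNA replicates 1, 2 and 3. With any 1 library left out, the log2 difference was between -3.09 and -2.81, and it was -2.84 without GLCC1 siRNA replicate 2. In bulk RNA such as this, fewer cells that make the transcript and less transcript per cell cannot be told apart.

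The change of GAL was one of many in these libraries. Of the 23074 genes tested, 7293 (31.6%) had an adjusted p under 0.05 in edgeR, 3429 of them higher (14.9%) and 3864 lower (16.7%) in the GLCC1 siRNA libraries. With library totals as the only scaling, the median of all genes moved from 0.03 to 0.15 on the log2 scale, and the split became 4735 higher and 2797 lower. Groups without overlap were also common: in 46.3% of genes all GLCC1 siRNA libraries lay on one side of all control libraries, and in 22.3% they were all above. Since GAL was chosen from this contrast, nothing is read from its own call.

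By the size of its fall GAL ranked 141 of all genes tested. Where the mean was 1 CPM or more, in 14875 genes, it ranked 11, between EDN2 (-2.91), which encodes the vasoconstrictor peptide endothelin 2, and ALPPL2 (-2.67), an alkaline phosphatase. Where the mean was 10 CPM or more, in 10378 genes, it ranked 3, after L1CAM (-3.60) and NCEH1 (-3.04), with CLIC3 (-2.53) next after it. GAL stood at percentile 87.1 of all genes tested by its level in the control libraries and at percentile 56.5 in the GLCC1 siRNA libraries, on a CPM scale that is not corrected for length.

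The summed level of epithelial markers was lower in the GLCC1 siRNA libraries, mostly through keratin genes. Of these, KRT8 alone had a mean of 3584 CPM in control and 1177 CPM in GLCC1 siRNA libraries. That of fibroblast and endothelial markers was lower too, through COL1A1 only. All 7 markers of simple and intestinal epithelium were detected, and their summed level was 5512 to 6031 CPM in the control libraries and 2193 to 2592 CPM in the GLCC1 siRNA libraries. The keratin genes KRT8 (-1.61), KRT18 (-1.82) and KRT19 (-1.34) and CDH1 (-0.53), the gene of E-cadherin, were lower on the log2 scale, each with an adjusted p under 0.05 in edgeR. The call on EPCAM (-0.30, adjusted p = 0.0454 in edgeR) was lost when any library but GLCC1 siRNA replicate 2 was left out, with an adjusted p of up to 0.186 in edgeR, while VIL1 (0.21) and CDX2 (-0.24) did not pass. VIL1 had a higher mean in the GLCC1 siRNA libraries, 237 against 205 CPM. Neuroendocrine markers, of the cell type that makes most gut peptides, were near 0 in both groups: 3 of 7 could be tested and none had an adjusted or unadjusted p under 0.05 in edgeR, INSM1 and NEUROD1 had no count, and the summed level was 1.60 to 1.85 CPM in control and 1.45 to 2.39 CPM in GLCC1 siRNA libraries. The sum of 4 immune markers was 2.74 to 4.03 against 3.26 to 5.37 CPM, with PTPRC at 0. That of 5 markers of fibroblasts and endothelium was 16.6 to 20.8 against 11.1 to 14.6 CPM, with PECAM1 at 0 and COL1A1 lower (-0.86, adjusted p = 0.000293 in edgeR). PDGFRB (0.09) and VWF (0.31) did not pass and had higher means in the GLCC1 siRNA libraries. The part of these shifts in the result for GAL was not tested.

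The receptors were scarce or absent. GALR1 (ENSG00000166573, chr18:74961804-74989856 on the plus strand of GRCh37) had 0 counts in each of the 6 libraries, of 99151572 read pairs in all. A count of 0 allows up to 3 counts, which is a level of 0.156 to 0.239 CPM in a single library and 0.0303 CPM over all libraries. GALR1, the receptor through which galanin acts on adenylyl cyclase in many tissues, was therefore not detectable at this depth in either group.

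GALR2 (ENSG00000182687, chr17:74070862-74073618 on the plus strand of GRCh37) had 6, 9 and 5 counts in control replicates 1, 2 and 3 and 14, 12 and 12 counts in GLCC1 siRNA replicates 1, 2 and 3. In CPM these were 0.411, 0.496 and 0.301 against 0.730, 0.954 and 0.671. Every GLCC1 siRNA library was thus above every control library, as in 22.3% of all genes tested, on a total of only 58 counts. The mean was 0.403 ± 0.0977 CPM in control and 0.785 ± 0.149 CPM in GLCC1 siRNA libraries (SD, n = 3 each), a log2 difference of 0.92 (SE 0.41, 95% interval 0.044 to 1.80). The difference did not pass the threshold, with an adjusted p = 0.104 in edgeR over all genes tested. An exact permutation test gave p = 0.1, two-sided, the smallest that 3 libraries against 3 allow. Without GLCC1 siRNA replicate 2 the log2 fold change was 0.79 (adjusted p = 0.168 in edgeR).

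GALR2 lies within the span of ZACN, the gene of a zinc-activated ion channel, on the same strand (chr17:74068042-74079747). Whether these genes also overlap in the annotation used for the counting was not checked. If they do, a read pair on exons of both was set aside as ambiguous, and the count of GALR2 may be too low in all libraries. ZACN had 13, 17 and 19 counts in control and 20, 6 and 14 in GLCC1 siRNA libraries, with a log2 difference of -0.32 (SE 0.35, adjusted p = 0.526 in edgeR). The groups overlapped for ZACN, whereas they did not for GALR2.

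GALR3 (ENSG00000128310, chr22:38219389-38221492 on the plus strand of GRCh37) had 3, 10 and 2 counts in control replicates 1, 2 and 3 and 4, 3 and 5 counts in GLCC1 siRNA replicates 1, 2 and 3. Its levels were 0.206, 0.551 and 0.120 CPM against 0.209, 0.239 and 0.280 CPM. The groups overlapped, and control replicate 2 lay above all other libraries. With 0.292 ± 0.228 CPM (SD, n = 3) in control and 0.242 ± 0.0357 CPM (SD, n = 3) in GLCC1 siRNA libraries, the log2 fold change was -0.30 (SE 0.67, 95% interval -1.74 to 1.14, adjusted p = 0.765 in edgeR). Without control replicate 2 its sign turned, to 0.56 (adjusted p = 0.676 in edgeR). The interval holds changes of more than 2-fold both ways, so a change of GALR3 was not detectable at this depth.

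Per kilobase of exon, GAL was far above its receptors in both groups. In the control libraries the order was GAL at 65.5 ± 2.06, GALR2 at 0.293 ± 0.0712, GALR3 at 0.255 ± 0.199 and GALR1 at 0 CPM per kilobase (SD, n = 3), where GALR2 and GALR3 did not differ beyond their spread. In the GLCC1 siRNA libraries GAL stood at 8.68 ± 1.76, GALR2 at 0.572 ± 0.109 and GALR3 at 0.211 ± 0.0311 CPM per kilobase (SD, n = 3), and the difference between GALR2 and GALR3 was wider than their SDs. GALR3 rested there on 4, 3 and 5 counts, at or near the floor of 3 counts, and the order of these receptors was not tested. Exon lengths are those of all annotated transcripts of a gene together, so that levels of genes with long rare isoforms are understated.

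Genes around the galanin system were taken from 7 lists, and the background for each count below is the 31.6% of all genes tested with an adjusted p under 0.05 in edgeR and a median log2 fold change of 0.03. The first list held 4 close kin. GALP, the galanin-like peptide, had no count. SPX, the gene of spexin, a peptide that acts on GALR2 and GALR3, is listed in the files as C12orf39. It had 0.411, 0.386 and 0.120 CPM in control and 0.469, 0.636 and 0.727 CPM in GLCC1 siRNA libraries, a log2 difference of 0.98 that did not pass (adjusted p = 0.163 in edgeR). KISS1, the gene of kisspeptin, did not pass either (0.24, adjusted p = 0.624 in edgeR). KISS1R, the kisspeptin receptor and the closest relative of the galanin receptors on the list, was the 1 gene of 3 tested that fell. It had 3.36, 4.90 and 3.55 CPM in control and 1.46, 0.477 and 1.90 CPM in GLCC1 siRNA libraries, a log2 difference of -1.55 (SE 0.31, adjusted p = 0.00187 in edgeR). The lowest of these values was in GLCC1 siRNA replicate 2, without which the log2 difference was -1.24 (adjusted p = 9.52e-06 in edgeR).

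Peptide processing and storage was represented by 19 genes, of which 16 could be tested, 3 were higher, 3 were lower and 10 did not pass, with a median log2 fold change of 0.25. VGF, a granin-like protein of secretory granules, rose most among those with at least 1 CPM, from 74.4, 105 and 82.0 CPM in control to 361, 286 and 418 CPM in GLCC1 siRNA libraries. Its log2 difference was 2.03 (SE 0.15, adjusted p = 3.84e-07 in edgeR), so this granule gene and GAL moved in opposite directions. ECE1, the endothelin-converting enzyme, which cleaves several peptides, rose by 0.59 (SE 0.10, adjusted p = 0.000494 in edgeR). PCSK6, a convertase that cleaves at basic residues, had a log2 difference of -0.70 (SE 0.10, adjusted p = 0.000137 in edgeR). FURIN (0.07), the general convertase of the secretory pathway, PAM (-0.11), which amidates peptides, and CPD (0.05), which trims basic residues, were well expressed and did not pass.

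The remaining calls of the processing list were less firm. SCG5, the chaperone of a neuroendocrine convertase, was lower (-0.70, adjusted p = 0.0365 in edgeR), and the call was lost when any library but GLCC1 siRNA replicate 2 was left out, with an adjusted p of up to 0.121 in edgeR. With all libraries kept, the call on SCG5 was also lost in DESeq2 (adjusted p = 0.144). In edgeR it was lost with library totals only, a filter of 1 count in any library or a replicate block (adjusted p = 0.0623 to 0.0800). PCSK7 was lower (-0.36, adjusted p = 0.00814 in edgeR), but the call was lost without control replicate 3 (0.0514). PCSK1N, an inhibitor of convertases, was higher at under 1 CPM on average (2.12, adjusted p = 0.0175 in edgeR), a call lost without any of the control libraries or GLCC1 siRNA replicate 3 (up to 0.141). Without control replicate 3 only 3 genes of the list passed, in place of 6, and without GLCC1 siRNA replicate 2 there were 8. With library totals as the only scaling, 4 were higher and 1 was lower.

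Among the 48 other neuropeptide and gut hormone genes, no library held a count for 23, and 18 could be tested, of which 6 reached a mean of 1 CPM. Of the 18, 2 were higher, 5 were lower and 11 did not pass, with a median log2 fold change of -0.19. NMU, the gene of neuromedin U, which contracts smooth muscle, had 30.7, 35.3 and 34.7 CPM in control and 16.1, 16.1 and 18.9 CPM in GLCC1 siRNA libraries, a log2 difference of -0.98 (SE 0.11, adjusted p = 1.72e-05 in edgeR). NMB, the gene of neuromedin B, a bombesin-like peptide, had 10.6, 13.4 and 12.9 CPM against 3.86, 4.77 and 5.48 CPM, a log2 difference of -1.40 (SE 0.16, adjusted p = 2.08e-05 in edgeR). The genes of this list next to GAL in level per kilobase in the control libraries therefore fell as well, each by less than GAL. In the GLCC1 siRNA libraries the gene next below GAL was ADM2, which did not pass (0.28, adjusted p = 0.203 in edgeR). ADM, the gene of the vasodilator adrenomedullin, rose by 0.61 (SE 0.15, adjusted p = 0.00649 in edgeR).

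Scarcer peptide genes moved both ways. GAST, the gene of the stomach hormone gastrin, fell from 0.754, 0.827 and 0.602 CPM in control to 0.104, 0.159 and 0.112 CPM in GLCC1 siRNA libraries (log2 fold change -2.51, SE 0.52, adjusted p = 0.00221 in edgeR). GIP, the gene of an incretin hormone of the upper gut, rose from 0.137, 0.110 and 0.361 CPM to 0.730, 1.35 and 0.783 CPM (log2 fold change 2.15, SE 0.52, adjusted p = 0.00624 in edgeR). TAC3 (-1.50) and CORT (-1.07), of the tachykinin and somatostatin families, were lower with adjusted p = 0.0471 and 0.0453 in edgeR. The call on TAC3 was lost when any library but GLCC1 siRNA replicate 2 was left out, with an adjusted p of up to 0.253 in edgeR, and the call on CORT when any but GLCC1 siRNA replicate 3 was left out, with one of up to 0.165.

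Counted per kilobase of exon, and among GAL and the 18 tested genes of this list only, GAL stood first in the control libraries and after NMU in the GLCC1 siRNA libraries. The list was written by hand and leaves out other peptide genes such as EDN2. NMU stood at 34.4 ± 2.54 CPM per kilobase in control and 17.4 ± 1.68 in GLCC1 siRNA libraries (SD, n = 3), against 65.5 ± 2.06 and 8.68 ± 1.76 for GAL. NMB followed with 12.1 ± 1.45 and 4.60 ± 0.796, and ADM2 with 4.49 ± 0.302 and 5.42 ± 1.41. Of the summed level per kilobase of the 19 peptide genes tested, GAL made up 50.5% to 51.8% in a control library and 17.2% to 19.8% in a GLCC1 siRNA library.

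**Figure D1:**
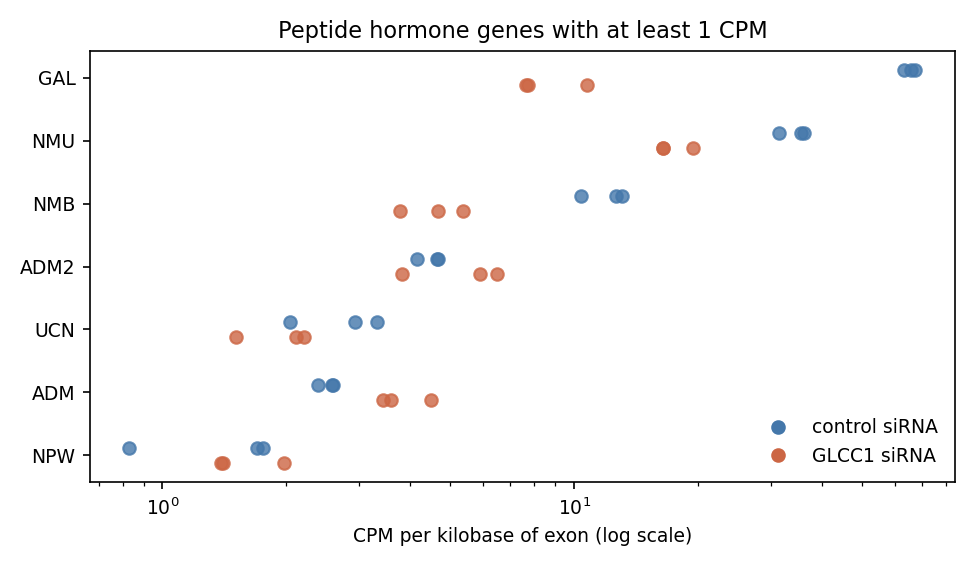
CPM per kilobase of exon on a log scale (horizontal axis) for the peptide hormone genes at or above a mean of 1 CPM, 1 point for each library, control siRNA above and GLCC1 siRNA below the line of each gene. Of the genes plotted, GAL is highest in control and lies under NMU in GLCC1 siRNA libraries. All GLCC1 siRNA libraries lie below all control libraries for GAL, NMU and NMB, and above them for ADM. Of all genes tested, 46.3% had no overlap between the groups.

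Receptors of other peptide hormones, 44 genes, were mostly as scarce as those of galanin. No count fell on 13 of them, and of the 25 tested 7 reached 1 CPM, 3 were higher, 1 was lower and 21 did not pass, with a median log2 fold change of 0.36. MC1R, the melanocortin receptor of pigment cells, rose from 7.47, 7.99 and 8.97 CPM in control to 19.9, 13.8 and 18.8 CPM in GLCC1 siRNA libraries (log2 fold change 1.11, SE 0.15, adjusted p = 7.67e-05 in edgeR). OPRL1, the nociceptin receptor, fell from 6.51, 6.72 and 7.17 CPM to 2.92, 3.82 and 4.70 CPM (log2 fold change -0.84, SE 0.18, adjusted p = 0.00276 in edgeR). NTSR1, the neurotensin receptor, rose by 0.54 (adjusted p = 0.00879 in edgeR), a call lost without control replicate 1 (0.0562). VIPR1, the receptor of vasoactive intestinal peptide, was higher by 0.36 (adjusted p = 0.0331 in edgeR), a call lost when any library but GLCC1 siRNA replicate 2 was left out (up to 0.152). The call on VIPR1 was also lost with a block for the replicate number (adjusted p = 0.0643 in edgeR). Without GLCC1 siRNA replicate 2, 8 genes of the list passed, and without control replicate 1 only 2 did.

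Signalling below galanin receptors was represented by 31 genes for G proteins, their enzymes and channels and the kinases and arrestins that switch receptors off. Of the 23 tested, 4 were higher, 3 were lower and 16 did not pass, with a median log2 fold change of 0.08. KCNJ5, a subunit of the potassium channel that Gi-coupled receptors open, rose from 1.23, 1.21 and 1.69 CPM in control to 9.59, 7.0 and 8.73 CPM in GLCC1 siRNA libraries, a log2 difference of 2.62 (SE 0.20, adjusted p = 7.04e-07 in edgeR). The other channel genes of the list were KCNJ3 and KCNJ6, with no count, and KCNJ9, with too few counts to be tested. ADCY9, an adenylyl cyclase, had 26.8, 28.5 and 29.1 CPM against 69.0, 66.8 and 73.4 CPM, a rise of 1.31 (SE 0.09, adjusted p = 3.06e-07 in edgeR). GNAQ, the alpha subunit of Gq, and PLCB4, a phospholipase C that Gq activates, rose by 0.69 (SE 0.10, adjusted p = 0.000194 in edgeR) and 0.86 (SE 0.10, adjusted p = 2.83e-05 in edgeR).

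Among the Gi subunits on the list, GNAI1 had no count and GNAI3 did not pass (-0.03). GNAI2 was lower (-0.45, adjusted p = 0.0239 in edgeR), a call lost without control replicate 2 or 3 (up to 0.102) and with library totals as the only scaling. The receptor kinase genes GRK3 (-0.37), listed in the files as ADRBK2, and GRK5 (-0.40) were lower with adjusted p = 0.0135 and 0.0196 in edgeR. GRK3 lost its call without control replicate 1 or 3 or GLCC1 siRNA replicate 1 or 3 (up to 0.0800), GRK5 without control replicate 2 or 3 (up to 0.0838), and both with library totals as the only scaling. Under that scaling all 5 genes of the list that passed were higher. Without GLCC1 siRNA replicate 2, 13 genes passed, and without control replicate 3 only 4 did.

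Factors known to act on galanin transcription in nerve or pituitary cells formed a list of 16 genes. Of the 15 tested, 2 were higher, 3 were lower and 10 did not pass, with a median log2 fold change of -0.07. LIF, the cytokine that induces galanin in injured neurons, was expressed at 40.2 to 45.9 CPM in control and 38.9 to 44.1 CPM in GLCC1 siRNA libraries (-0.06, adjusted p = 0.679 in edgeR). LIFR, which encodes its receptor, had no count, and STAT3, which acts downstream of that receptor, did not pass (-0.03). CREB1 (-0.07), the cyclic AMP response factor, and ESR1 (-0.17), an oestrogen receptor, did not pass either.

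Most genes of this list belong to the CREB and AP-1 families, and members of both rose, fell or did not pass. ATF1, a close relative of CREB1, rose from 24.3, 24.6 and 26.5 CPM to 41.4, 54.3 and 44.6 CPM (0.89, SE 0.11, adjusted p = 4.75e-05 in edgeR), and CREM, another relative, fell by 0.62 (SE 0.12, adjusted p = 0.00107 in edgeR). Of the AP-1 subunits, FOS (-0.12), FOSB (-0.23), FOSL1 (0.13) and JUND (-0.19) did not pass, JUN rose by 0.59 (SE 0.12, adjusted p = 0.00196 in edgeR) and FOSL2 fell by 0.68 (SE 0.08, adjusted p = 3.90e-05 in edgeR). JUNB was lower by 0.86 on the log2 scale (adjusted p = 0.00211 in edgeR), a call lost without GLCC1 siRNA replicate 2 (0.0698).

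**Figure D2:**
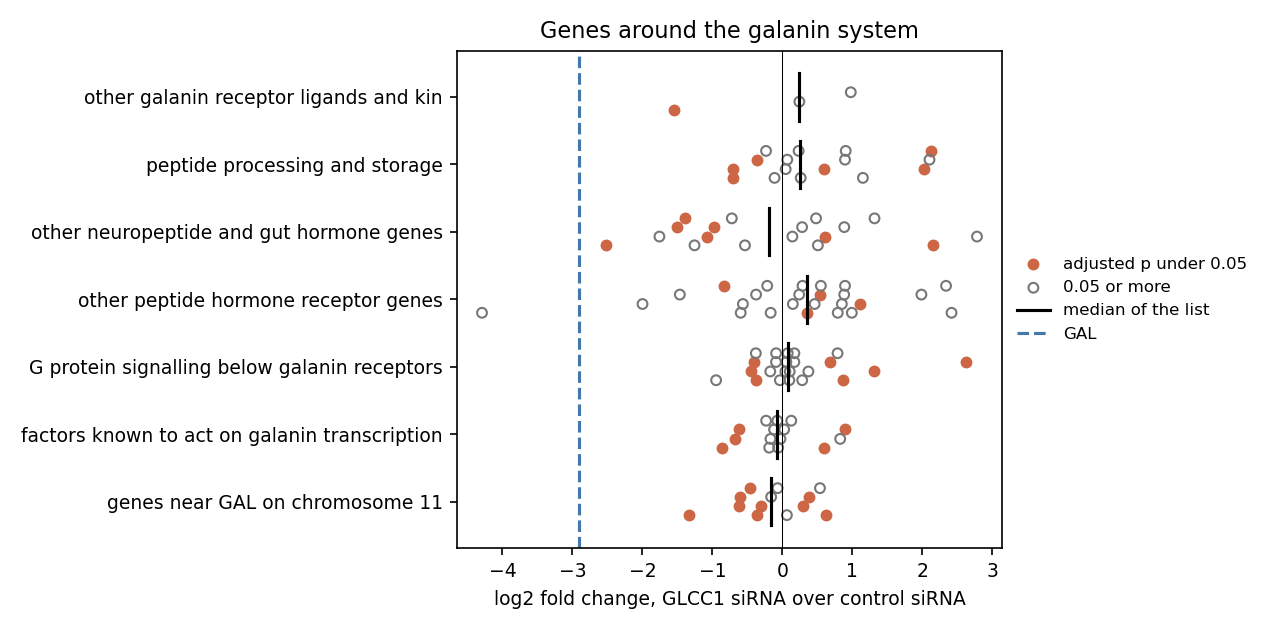
The log2 fold change of GLCC1 siRNA over control siRNA (horizontal axis) for each tested gene of the 7 lists, 1 row a list, with filled points for an adjusted p under 0.05 in edgeR, a short black line at the median of each list and a dashed line at GAL. Medians lie between -0.19 and 0.36, and 1 gene of 1 list, a receptor gene that did not pass, lies below GAL.

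Genes on both sides of GAL were read for 14 neighbours on chromosome 11, from CHKA at 562 kilobases upstream to CCND1 at 997 kilobases downstream. Of the 13 tested, 12 of which reached 1 CPM, 3 were higher, 6 were lower and 4 did not pass (69.2% called), with a median log2 fold change of -0.16. The 31.6% of all genes includes many scarcer ones. With a filter of 10 counts in every library, 6853 of all 14604 genes left and 9 of 12 neighbours were called. The nearest on each side did not move as GAL did. PPP6R3, a phosphatase subunit 68.4 kilobases upstream, had 262, 254 and 261 CPM in control and 256, 304 and 254 CPM in GLCC1 siRNA libraries (0.07, adjusted p = 0.606 in edgeR). TESMIN, a testis gene 16.3 kilobases downstream that the files list under its older symbol MTL5, was higher (0.39, SE 0.12, adjusted p = 0.0292 in edgeR), a call lost without control replicate 1 or 3 or GLCC1 siRNA replicate 3 (up to 0.143).

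MYEOV, 603 kilobases downstream, had the largest fall of the neighbours, from 112, 125 and 121 CPM to 49.7, 41.6 and 50.5 CPM (log2 fold change -1.33, SE 0.10, adjusted p = 4.54e-07 in edgeR). TPCN2 (-0.62), a lysosomal channel, and IGHMBP2 (-0.61), a helicase, were lower with adjusted p = 0.0029 and 0.00103 in edgeR. SUV420H1, a histone methyltransferase, rose by 0.63 (adjusted p = 0.000173 in edgeR). The calls on LRP5 (-0.47), MRPL21 (-0.36), CHKA (-0.30) and CPT1A (0.29) were each lost without 1 or more of the control libraries, with adjusted p in edgeR of up to 0.0806, 0.0660, 0.0930 and 0.0747, and that on CHKA also without GLCC1 siRNA replicate 1 or 3. LRP5 lost its call without control replicate 2, MRPL21 and CPT1A without replicate 1 or 3, and CHKA without any of the 3. Without control replicate 1, and likewise without control replicate 3, 5 genes of the list passed in place of 9. CCND1, the cyclin D1 gene, and C11orf24 (-0.16) did not pass, and CCND1 was at -0.07, or at 0.05 with library totals as the only scaling.

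**Figure D3:**
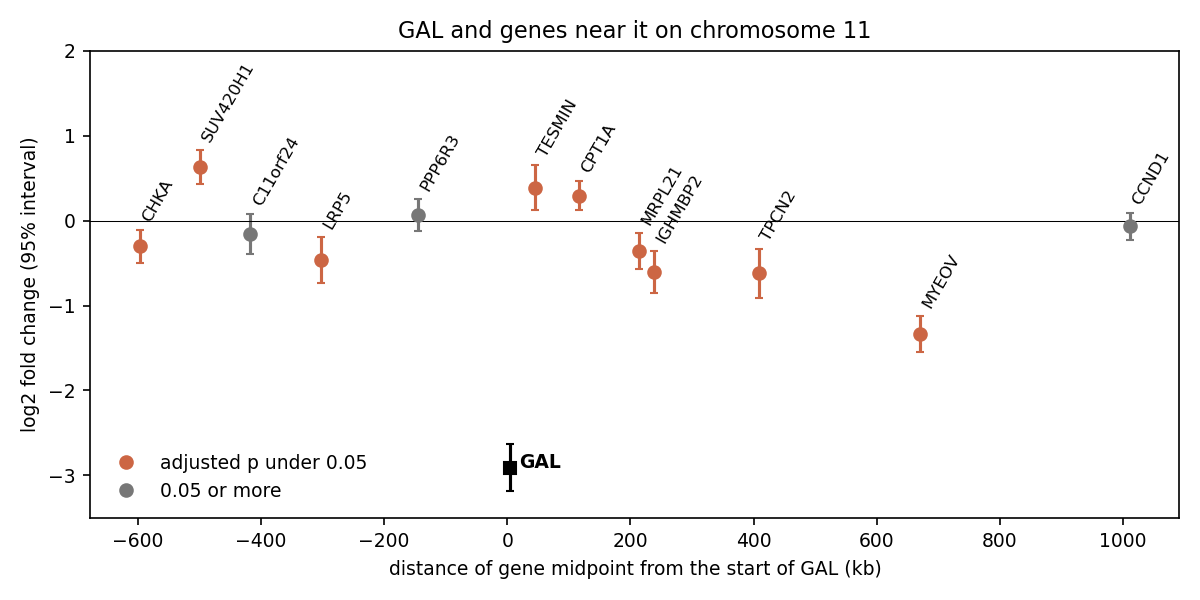
The log2 fold change with its 95% interval (vertical axis) of GAL and of the genes near it that averaged 1 CPM or more, placed by the distance of each gene's midpoint from the start of GAL in kilobases (horizontal axis). GAL at -2.91 lies below all neighbours, the lowest of which is MYEOV at -1.33.

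Genes with a pattern most like that of GAL were ranked by the Euclidean distance over the 6 libraries between log2(CPM + 1) values, each gene centred on its own mean, among 10377 genes that averaged 10 CPM or more. The closest was NCEH1, a cholesterol ester hydrolase, at a distance of 0.476, where the median gene was at 3.40. NCEH1 had 108, 101 and 108 CPM in control and 10.8, 14.9 and 13.2 CPM in GLCC1 siRNA libraries. Also among the closest were PPT1, a lysosomal thioesterase, at 0.661, L1CAM, a neural adhesion molecule, at 0.696 and CLIC3, a chloride channel protein, at 0.719. For NCEH1, PPT1, L1CAM and CLIC3 the log2 fold changes were -3.04, -2.38, -3.60 and -2.53. Distances over 6 libraries mostly rank genes by the size of the difference between the groups, and with a minimum of 1 CPM MATN3 came first, ahead of NCEH1.

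The word ACCTTGA pairs with the seed of the guide strand of an siRNA the paper lists against GLCC1. It was searched for on the sense strand of annotated 3′ UTRs, as a description only. Whether that siRNA was the one in the sequenced cells is not given in the sources used here. The paper lists another siRNA against GLCC1, and its word was not searched for. Of the UTRs of at least 50 bases of 11373 genes with at least 1 CPM, 11.9% held it. The 188-base 3′ UTR of GAL and the 106-base UTR of GALR2 did not, whereas that of GALR1, at 8998 bases, held 1 match. GALR3 gave no 3′ UTR of at least 50 bases and was left out. NCEH1 held 2 matches in 3226 bases, and PPT1 (1349 bases), L1CAM (1147 bases) and CLIC3 (73 bases) held none. The share over all genes takes no account of UTR length.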

How the data were processed

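The authors mapped paired-end reads to hg19 with TopHat2 2.0.11 per the submitters' processing notes and counted read pairs per gene with HTSeq in union mode, and the deposited values are raw counts, 1 table for each library. Strand use was not given in the sources used here. Tallies of reads on no gene were removed. Genes whose 3 libraries held under 5 counts together in each group were left out, and the others were compared by edgeR 4.0.16 (R 4.3.3) with TMM factors and the robust quasi-likelihood test, with Benjamini-Hochberg adjustment over 23074 genes. Depth was 11948790 to 19042516 read pairs per library, and intervals and the floor of 3 counts cover counting error only. The paper states for its experiments in general that replicates were biological and collected independently, but no label says so of these libraries, so p-values measure the spread between them, whatever its source. The procedure was tested on simulated data. Positions, exon lengths and sequences came from GENCODE 44 mapped to GRCh37. The paper names an Ensembl annotation of GRCh37 for its mapping, and these annotations were not compared.

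The members and lists were chosen with earlier results of these data known. Named were the 4 galanin genes, up to 4 genes of each list with the largest absolute log2 fold change among those with an adjusted p under 0.05 and at least 1 CPM, all neighbours of GAL with at least 1 CPM, and the 5 genes most like GAL, of which 1 is not reported here. GAST, TAC3, CORT, GIP, PCSK1N, PCSK7, GNAI2, GRK3, GRK5, JUN, SPX, KISS1, the markers and members given as not passing were named after their values were seen. Alternatives were DESeq2 1.42.0 with and without a prior, its size factors in edgeR, library totals as the only scaling, a block for the replicate number, the grouping by library names, filters of 1 count in any or 10 counts in every library, and fits without each library.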

Additional observations from a re-analysis of the deposited data

How the results depend on the processing

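GAL kept its direction under all alternatives but the grouping by library names, which turned it to 2.91 by construction, and was otherwise between -2.92 and -2.79 with all libraries. Over fits without 1 library, the log2 fold change was between -3.09 and -2.81 for GAL, 0.75 and 1.11 for GALR2 and -0.67 and 0.56 for GALR3, where the highest value, without control siRNA replicate 2, turned the sign. The number of genes called was between 5221 and 9920 over these fits, against 7293. In the lists it was 1 and 1 for galanin kin, 3 and 8 for peptide processing, 5 and 8 for other peptides, 2 and 8 for other receptors, 4 and 13 for G protein signalling, 5 and 7 for transcription factors and 5 and 9 for neighbours of GAL.

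A filter of 10 counts in every library left no tested gene, and so 0 calls, among the kin of galanin and 3 calls among other peptides, since fewer genes were tested, and it removed GALR2 and GALR3. Single genes whose sign turned without passing in either fit were PPP6R3 (-0.019 without GLCC1 siRNA replicate 2, up to 0.11 without replicate 3) and CCND1 (0.055 with library totals as the only scaling). Over all pairs of a single named gene and an alternative, a call was lost in 74, and direction and side of the threshold were as reported in 565, genes without a call included.

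Same-numbered libraries did not deviate together, with correlations of -0.13, -0.25 and -0.0026 across 14875 genes, so the numbers were not used as pairs. With the replicate number as a block, GAL was at -2.92, GALR2 at 0.96 (adjusted p = 0.146 in edgeR) and GALR3 at -0.13, and 6522 genes were called. DESeq2 gave 0.96 for GALR2 (adjusted p = 0.247) and -0.28 for GALR3. For GALR2 and GALR3, with 58 and 27 counts in all, depth sets the width of the intervals.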
